A study of Mus musculus with 18 samples.

Results

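AP-1 is a family of dimeric transcription factors, and most of its genes, together with Egr1, Ier2, Atf3 and Dusp1, are immediate early genes, which cells transcribe within minutes of a stimulus without first making new protein. The genes described here are the 10 listed members Fos, Fosb, Fosl2, Jun, Junb, Jund, Egr1, Ier2, Atf3 and Dusp1, chosen by name from the 23228 genes of an expression table, in which all 10 were found. RNA was sequenced from 2 kinds of mouse embryonic material, both of strain ICR and both labelled wild type. One was neural tube at E12.5 from embryos with a transgene in which a 2.3 kb enhancer of Ptf1a, a transcription factor gene, drives green fluorescent protein (GFP) from a beta-globin basal promoter. The tissue was held at 37 °C with trypsin (0.25%) for 15 minutes to free single cells, serum at 2% stopped the enzyme, and the GFP-positive cells were sorted. The other was E15.5 pancreas taken as whole tissue, with no dissociation, sort or transgene named. Because the transgene marks cells in which that enhancer is or recently was active, the sorted sample stands for part of the neural tube only.

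Jun proteins pair with one another or with Fos proteins through a leucine zipper, whereas Fos proteins need a partner from another family, and the dimers bind AP-1 sites or cAMP response elements. Transcription of Fos and Egr1 is switched on by serum response factor and by cAMP response element binding protein downstream of MAP kinases, and Dusp1, a phosphatase, shuts those kinases down again. Warm enzymatic dissociation of tissue is known to induce many of these genes. The members differ in this respect, and Jund is known as the most constitutively expressed Jun gene. The comparison of sorted cells with whole tissue asks whether the members were higher in the dissociated sample, but tissue, stage, sorting, RNA extraction and possibly library preparation differed between the same 2 samples and cannot be told apart.

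Levels are the FPKM that the authors deposited (fragments per kilobase of transcript, scaled to library size). The labels name 2 libraries for each sample, but the table holds 1 value per gene and sample, so no SD, test or replicate check is given for any value here. Differences were taken on the log2(FPKM + 1) scale as neural tube minus pancreas, which makes those of weakly expressed genes look smaller. The word called marks a gene whose difference reached 2 in log2 (4 times) in either direction while its higher level reached 5 FPKM, a rule of size with no test behind it. Depth was not given as counts. From the lowest steps of the values, 1 fragment on a 1 kb transcript was worth about 0.0417 FPKM in the sorted cells and 0.0246 FPKM in pancreas, a depth about 1.69 times greater in pancreas. The 12 neural tube identity markers were all called higher in neural tube and the 11 pancreas identity markers all higher in pancreas.

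The promoter windows of the members were searched for the letters of elements of the signal response. RefSeq windows (GRCm38.p6) were matched for 8 of the 10 members, all except Egr1 and Ier2, and the 250 bases before the start annotated by RefSeq were each found at 1 place on NCBIM37, the sequence of mm9. For Junb, Atf3 and Dusp1 that start differs from the start of the gene span given below, and the Atf3 and Dusp1 windows overlap that span. The 5 windows below are shown because these genes carry the contrasts within the Jun and Fos families and, for Dusp1, a complete response element. Capitals mark every match, on either strand, to the cAMP response element TGACGTCA, its core TGACG, the AP-1 site TGACTCA and its reverse complement TGAGTCA, the AP-1-like letters TGACATCA, the Egr sites GCGGGGGCG and GCGTGGGCG, the TATA box TATAAA, or the serum response element (CArG box). The core lies within the full element.
Jun, minus strand, chr4:94718914-94719163: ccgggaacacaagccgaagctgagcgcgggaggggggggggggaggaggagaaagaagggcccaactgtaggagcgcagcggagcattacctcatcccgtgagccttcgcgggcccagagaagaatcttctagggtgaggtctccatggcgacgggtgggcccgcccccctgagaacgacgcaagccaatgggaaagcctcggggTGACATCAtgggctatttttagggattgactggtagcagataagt
Jund, plus strand, chr8:73221388-73221637: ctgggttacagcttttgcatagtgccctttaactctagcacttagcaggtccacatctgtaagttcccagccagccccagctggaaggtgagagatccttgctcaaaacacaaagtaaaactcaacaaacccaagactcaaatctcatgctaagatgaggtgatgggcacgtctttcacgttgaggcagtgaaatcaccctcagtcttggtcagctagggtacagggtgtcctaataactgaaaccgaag
Fos, plus strand, chr12:86814590-86814839: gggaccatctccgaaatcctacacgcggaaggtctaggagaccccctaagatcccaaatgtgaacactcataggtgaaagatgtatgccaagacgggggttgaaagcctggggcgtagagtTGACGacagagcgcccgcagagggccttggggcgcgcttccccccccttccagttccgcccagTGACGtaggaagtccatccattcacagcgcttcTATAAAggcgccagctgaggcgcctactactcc
Fosl2, plus strand, chr5:32438595-32438844: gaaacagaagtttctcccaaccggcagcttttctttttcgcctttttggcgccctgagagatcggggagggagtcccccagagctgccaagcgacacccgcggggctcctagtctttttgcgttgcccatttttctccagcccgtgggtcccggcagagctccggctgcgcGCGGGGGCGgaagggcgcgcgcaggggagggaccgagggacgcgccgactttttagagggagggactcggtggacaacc
Dusp1, minus strand, chr17:26645418-26645667: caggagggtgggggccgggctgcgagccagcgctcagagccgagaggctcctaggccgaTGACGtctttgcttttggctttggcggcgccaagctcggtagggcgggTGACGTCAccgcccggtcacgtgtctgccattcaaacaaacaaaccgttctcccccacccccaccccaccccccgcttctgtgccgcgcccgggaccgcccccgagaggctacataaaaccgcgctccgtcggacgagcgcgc

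The Fos window held cores from 129 and from 66 bases before the start and a TATA box from 33 bases before it. Jun held TGACATCA from 45 bases before its start, and Fosl2 held an Egr site from 79 bases before its start. Dusp1 held the full cAMP response element from 143 bases before its start and another core from 191 bases before it. The Jund window held 0 matches and was also the least GC-rich of the 8, at 47.6% GC against 58.4% to 68.8% in the other windows. A shorter annotated Jund transcript starts 1219 bases further on, so this window lies upstream of the longer transcript only. The core TGACG was found in 5 of 8 members, namely Fos, Fosb, Junb, Atf3 and Dusp1, and in 17.8% of all 32851 windows of this length. The full element was found in 1 of 8 members and in 1.55% of all windows, and TATAAA in 1 of 8 and 12.4%. TGACATCA was found in 1 of 8 members and 2.93% of all windows, and GCGGGGGCG in 2 of 8 and 2.57%. TGACTCA, in 4.46% of all windows, GCGTGGGCG, in 0.536%, and the serum response element, in 1.47%, were found in 0 of 8. These shares of all windows are not matched for base composition. The median of all windows was 52.4% GC and 6 CG dinucleotides. The member windows other than that of Jund held 15 to 28 CG dinucleotides, and both TGACG and GCGGGGGCG contain CG. Whether the members hold more matches than windows of like composition was not tested. A match is a run of letters and not a shown binding site. Bases more than 250 before a start were not searched, and Egr1 and Ier2 had no window. A count of 0 therefore does not show that a gene lacks the element.

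The members did not stand together on the side of the dissociated, sorted cells. As deposited, Jun, Junb, Jund, Ier2 and Dusp1 (5 of 10) were higher in the sorted cells and Fos, Fosb, Fosl2, Egr1 and Atf3 (5 of 10) in pancreas. Fosb stayed below 1 FPKM in both samples. The other 9 members split 5 to 4, near the split of all genes. Among the 14303 genes that reached that level, 6872 were higher in the sorted cells and 7431 in pancreas. Whether the members depart from that split was not tested. Jund and Dusp1 stayed higher in the sorted cells, and the 5 on the pancreas side lower in them, under each of 5 rescalings. The same held after a correction for the length and GC content of transcripts. Jun, Junb and Ier2 changed sign under at least 1 of these settings. Of the 7 members that reached 5 FPKM in either sample, 1 was called higher in neural tube (Jund) and 1 higher in pancreas (Fosl2), where the rule called 10.3% of all 10744 such genes toward neural tube and 11.9% toward pancreas. With a threshold of 2 times, 3 of the 7 were higher in neural tube (Jund, Ier2 and Dusp1; 23.2% of all genes) and 2 in pancreas (Fos and Fosl2; 25.0% of all genes). With a threshold of 8 times, Jund alone passed toward neural tube (5.08% of all genes) and 0 toward pancreas (6.08% of all genes). All these thresholds apply on the log2(FPKM + 1) scale. By FPKM itself, Fosl2 was 34.4 times higher in pancreas, though its difference on that scale was -2.55. Among the 4 members at 5 FPKM or more in both samples, only Jun lay within 2 times, as did 68.4% of all 7037 such genes. Over the 9 members that reached 1 FPKM the median difference was 0.074, beside -0.072 over all 14303 such genes. Over the alternatives the members' median took both signs, from -0.94 after the length and GC correction to 1.03 with a minimum of 10 FPKM, which leaves 5 members. With rescaling it lay between -0.096 (upper quartile) and 0.52 (equal totals), while the median of all genes lay between -0.31 and 0.50 under the same 2 scalings. The share of all calls that pointed toward neural tube was 46.4% as deposited and moved both ways with scaling, from 38.4% with upper quartile to 66.1% with equal totals. It was 45.4% with median ratio scaling, 57.4% with housekeeping centring, 58.3% with equal totals without the 50 highest genes of each sample, and 42.9% after the length and GC correction.

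**Figure D1:**
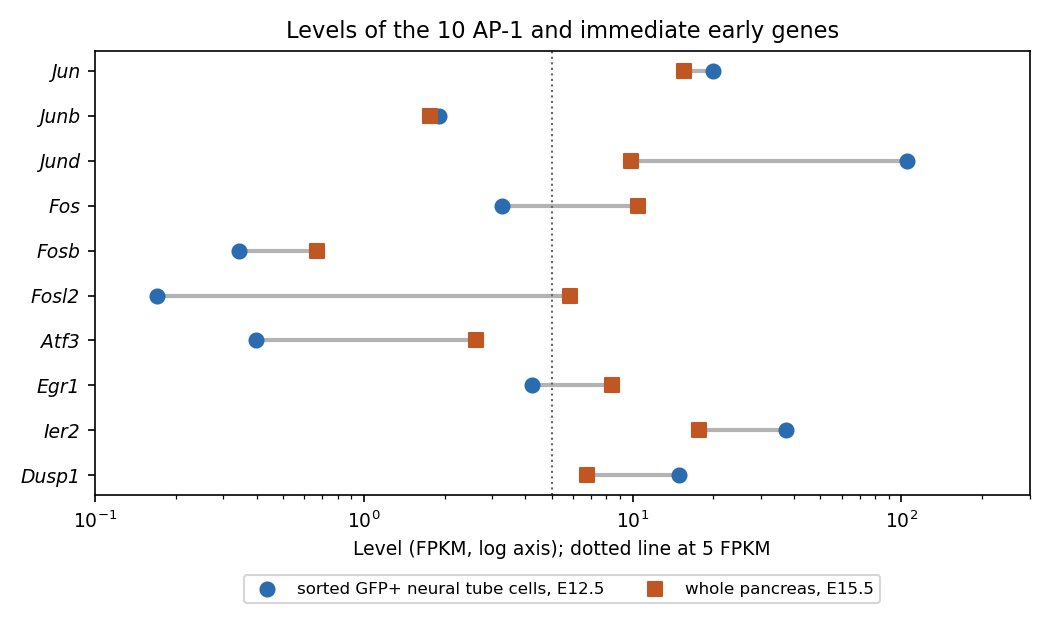
Level in FPKM (log axis) of each of the 10 genes in sorted neural tube cells (circles) and whole pancreas (squares), 1 value per sample, joined by a grey line. Jund at 105.1 against 9.86 FPKM and Fosl2 at 0.170 against 5.85 FPKM are the 2 longest lines and run in opposite directions.

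Among the Jun genes, Jund alone differed by more than the rule of size. Jund (chromosome 8, 73221638 to 73224515, mm9) stood at 105.1 FPKM in the sorted cells and 9.86 FPKM in pancreas, 10.7 times higher in the sorted cells and 3.29 on the log2 scale, or 1.999 after the length and GC correction, just under the threshold of 2. It ranked 603 among all genes in the sorted cells and 6308 in pancreas. Jun (chromosome 4, 94715725 to 94718913), the founding member of the family and a strong activator, had 19.99 FPKM in sorted cells and 15.6 FPKM in pancreas. Its difference of 0.34 turned to -0.058 after the length and GC correction. Junb (chromosome 8, 87500811 to 87502617), usually a weaker activator that can oppose Jun, stood at 1.91 FPKM in the sorted cells and 1.77 FPKM in pancreas. Its difference of 0.074 turned to -0.096 with upper quartile scaling and to -0.94 after the length and GC correction. Junb was thus the lowest of the Jun genes in both samples, and the order of Jun and Jund was opposite in the 2 samples. Jund was 5.26 times the level of Jun in neural tube, whereas Jun was 1.58 times the level of Jund in pancreas.

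The make-up of the summed Jun family followed from Jund. The 3 Jun genes summed to 127.03 FPKM in the sorted cells and 27.2 FPKM in pancreas, 4.67 times higher in neural tube, whereas Jun and Junb alone summed to 21.9 and 17.4 FPKM. Jund made up 82.8% of the family sum in the sorted cells and 36.2% in pancreas, which lie 46.5 percentage points apart. Jun made up 15.7% in neural tube and 57.3% in pancreas, and Junb 1.51% and 6.49%. These shares are taken within a sample and do not depend on how the samples are scaled to each other. No share was computed after the length and GC correction, which lowered the Jund difference from 3.29 to 1.999.

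The Jund value has limits of its own. A predicted gene, Gm11175, overlaps Jund by 543 bases on the opposite strand, as BC042782 overlaps Jun by 689 bases, and the sources used here do not say whether strand was used in counting, and without it the reads of such pairs cannot be told apart. Annotated Jund transcripts were 2878 and 1559 bases long, and a per-kilobase level depends on which of them the authors' annotation held.

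Of the 4 Fos genes, Fosl2 alone was called, toward pancreas. Fos and Fosb also had higher values in pancreas but did not pass the rule of size, and Fosl1 was near 0 in both samples. Fos (chromosome 12, 86814840 to 86818223), the classic immediate early gene, stood at 3.27 FPKM in the sorted cells and 10.5 FPKM in pancreas, 3.21 times higher in pancreas and -1.43 on the log2 scale, or -0.93 with equal totals. Fosl2 (chromosome 5, 32438845 to 32460204), a later and longer-lived Fos protein also called Fra-2, stood at 0.170 FPKM in the sorted cells and 5.85 FPKM in pancreas. That is 34.4 times higher in pancreas and a difference of -2.55, with about 24 fragments behind the neural tube value and 1390 behind that of pancreas. The Fosl2 level in pancreas lies just above the minimum of 5 FPKM, and the call is lost with a minimum of 10 FPKM, with a threshold of 8 times and with a pseudocount of 5, where the difference was -1.07. With a pseudocount of 0.1 it was -4.46. Fosb (chromosome 7, 19888070 to 19895394), which is strongly inducible in neurons, stood at 0.345 FPKM in the sorted cells and 0.669 FPKM in pancreas, below 1 FPKM in both. Fosl1, the remaining Fos gene, which is not one of the 10, stood at 0.0630 FPKM in neural tube and was listed at 0 in pancreas. The Fos genes were thus at most a few FPKM in the sample that had been dissociated, and Fos itself was the highest of them in both samples.

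Summed over Fos, Fosb, Fosl1 and Fosl2, the Fos family stood at 3.85 FPKM in the sorted cells and 17.01 FPKM in pancreas, 4.42 times higher in pancreas. Fos made up 85.0% of that sum in neural tube and 61.7% in pancreas, and Fosl2 4.42% and 34.4%. The Jun family sum was 33.0 times the Fos family sum in neural tube and 1.60 times in pancreas. Without Jund, Jun and Junb together were 5.69 times the Fos family in neural tube and 1.02 times in pancreas. The excess of Jun over Fos transcripts in neural tube was therefore present without Jund, and smaller.

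**Figure D2:**
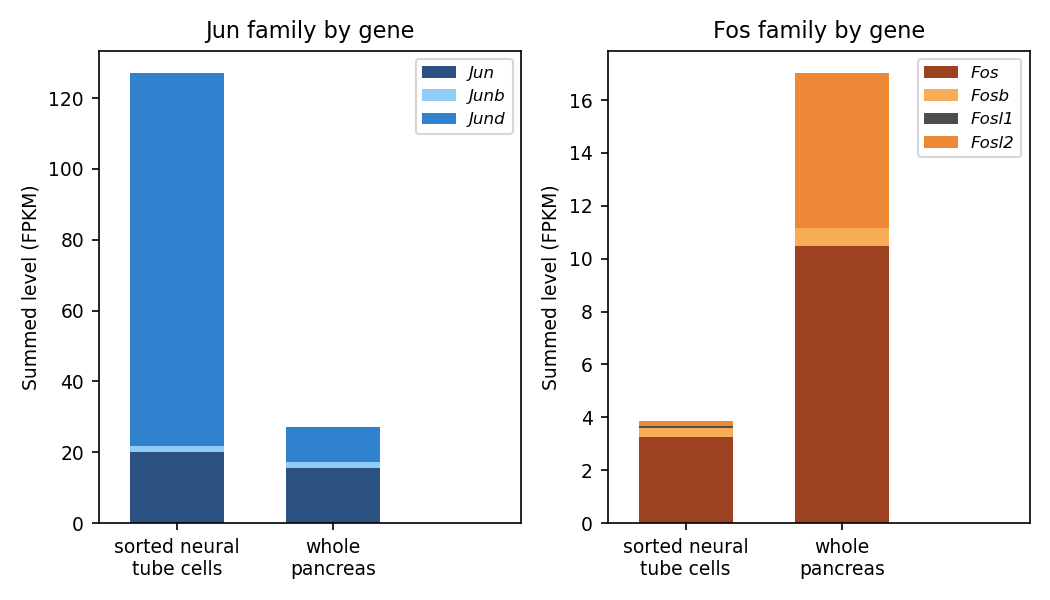
Summed level (FPKM, linear axes from 0, a different scale in each panel) of the Jun family and the Fos family in sorted neural tube cells and whole pancreas, each bar divided by gene, 1 value per sample. The Jun bar is taller in neural tube (127.03 against 27.2 FPKM) through Jund, and the Fos bar is taller in pancreas (17.01 against 3.85 FPKM) through Fos and Fosl2.

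The other transcription factors among the members stayed within the rule of size. Atf3 (chromosome 1, 192994175 to 193007219), a stress-induced repressor that can pair with Jun proteins, stood at 0.398 FPKM in the sorted cells and 2.61 FPKM in pancreas. That is 6.55 times higher in pancreas, but -1.37 on the log2(FPKM + 1) scale, and both values are under the 5 FPKM that a call needs. Egr1, a zinc finger factor induced along with Fos, stood at 4.22 FPKM in the sorted cells and 8.42 FPKM in pancreas, or -0.85 on the log2 scale. Gm17507 overlaps Egr1 by 200 bases on the opposite strand. Both genes were therefore lower in the sorted cells than in pancreas, as Fos was.

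As deposited, Ier2 and Dusp1 were higher in the sorted cells by about the same factor. Ier2 (chromosome 8, 87185230 to 87186751), an intronless immediate early gene for a nuclear protein, stood at 37.3 FPKM in the sorted cells and 17.7 FPKM in pancreas, or 1.03 on the log2 scale, a difference that was lost entirely after the length and GC correction (-0.00044). Dusp1 (chromosome 17, 26642535 to 26645464), the phosphatase that inactivates stress-activated MAP kinases, stood at 14.9 FPKM in the sorted cells and 6.80 FPKM in pancreas, also a difference of 1.03, and 1.01 after that correction. Ier2 was the highest of the 10 members in pancreas and second to Jund in neural tube. Relative to Fos, which responds to the same signals, Dusp1 was 4.55 times as high in neural tube and 0.648 times in pancreas.

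Over the 10 members the difference went with the GC content of the transcript. Spearman's rho between difference and GC content was 0.84 over the 10 members and 0.26 over 13267 genes at 1 FPKM or more with a known GC content, a description across genes that all come from the same 2 samples. Fos, Fosl2 and Atf3 fall (51.9% to 52.2% GC) in the middle of 5 equal bins of all genes by GC content, where the median difference of all genes was -0.10. Jun, Egr1 and Dusp1 fall in the next bin up, where that median was 0.13 and Egr1, at -0.85, lay on the other side of 0. Junb, Jund and Ier2 fall in the highest bin (60.9% to 62.7% GC), where the median of all genes was 0.61 and 19.8% of genes at 5 FPKM or more were called toward neural tube. The lowest bin had a median of -0.59 and 4.19% called. Jun, Junb, Jund and Ier2 are also annotated with a longest transcript of 1 exon, and the 350 such genes at 1 FPKM or more had a median of 0.67, with 30.2% called toward neural tube. The difference of all genes also went with transcript length. Of 5 bins by length, the shortest, which holds Ier2, had a median of -0.60, and the longest, which holds Fosl2, a median of 0.43. After the median difference of genes of like length and GC content was removed, Jund stood at 1.999 and Fosl2 at -3.08. These corrected values therefore reflect length as well as GC content. Junb, which is like Jund in GC content and exon number, differed by 0.074 as deposited and by -0.94 after this correction. Its levels were low, at 1.91 FPKM in the sorted cells and 1.77 FPKM in pancreas. What GC content and the library preparations contribute to the Jund difference was not tested further.

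**Figure D3:**
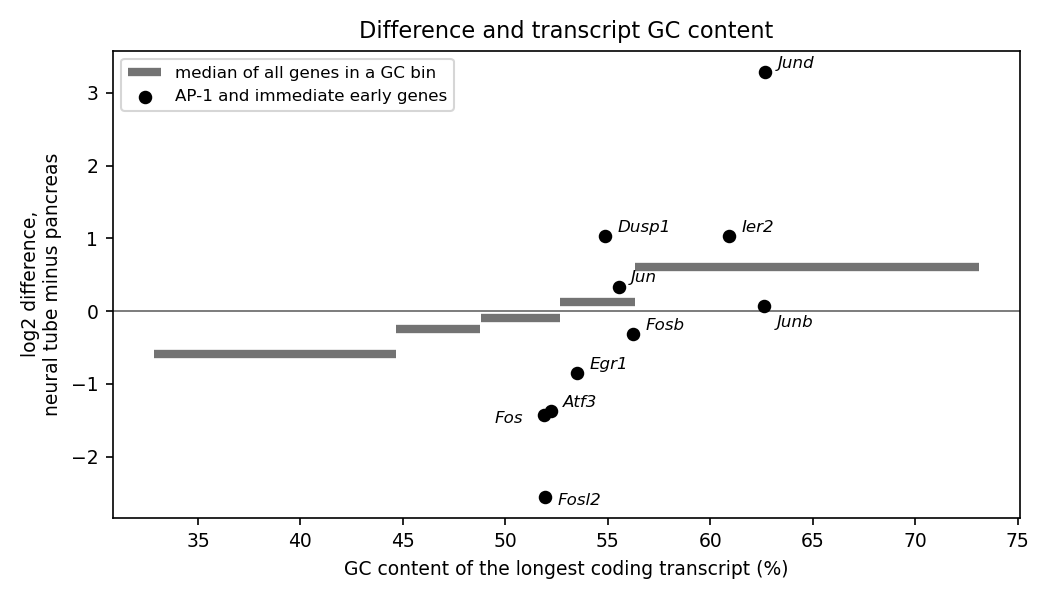
Difference in log2 (neural tube minus pancreas) against the GC content (%) of the longest coding transcript for the 10 genes (points), with the median of all genes at 1 FPKM or more in each of 5 bins of GC content (grey bars). The bars step up from -0.59 to 0.61, and Jund at 3.29 lies above and Fosl2 at -2.55 below the bars of their bins.

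**Figure D4:**
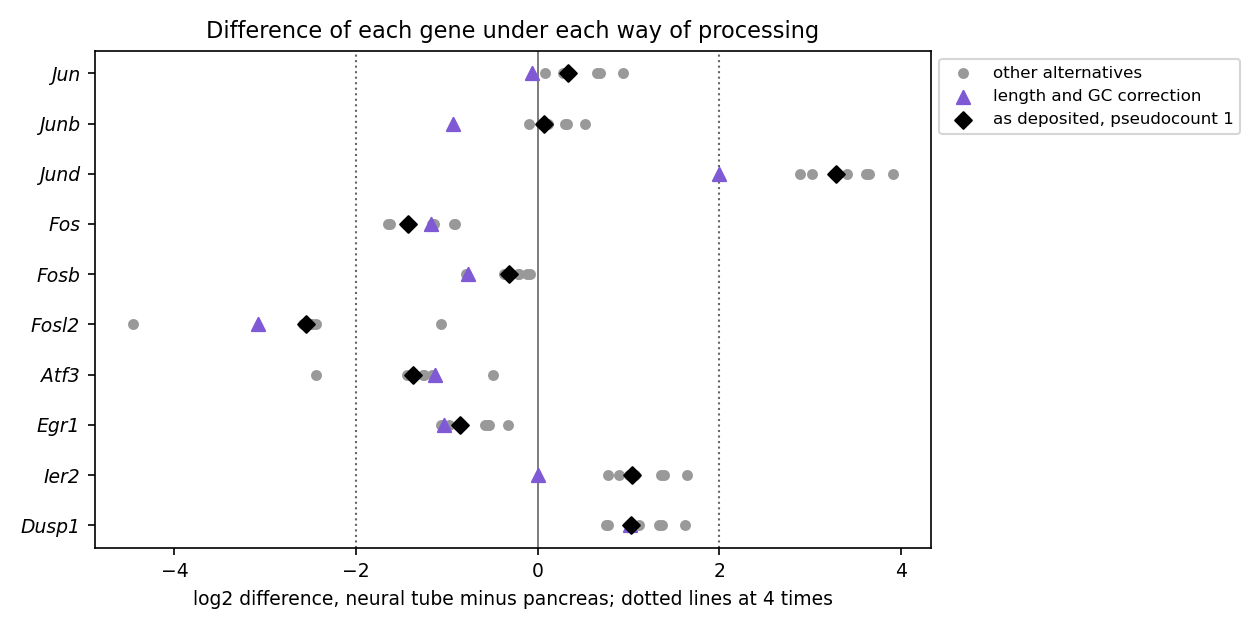
Difference in log2 (neural tube minus pancreas) of each of the 10 genes as deposited with a pseudocount of 1 (diamonds), after the length and GC correction (triangles) and under the other alternatives (grey points), with dotted lines at 4 times. Jund ranges from 2.00 to 3.91 and Fosl2 from -4.46 to -1.07, while Jun, Junb and Ier2 cross 0.

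Other AP-1 and related bZIP factors showed no call in either direction. Of 21 such genes, 13 reached 5 FPKM in at least 1 sample, and 0 of these were called. Of the 8 that reached it in both, 6 lay within 2 times. Across the whole table, the rule called 10.3% of eligible genes toward neural tube and 11.9% toward pancreas. The share within 2 times was 68.4%, again counting only genes that reached the minimum in each sample. Whether this list departs from these shares was not tested. The median difference of the 17 that reached 1 FPKM was -0.38, and ranged from -0.65 to 0.24 over the alternatives. Atf4, the main factor of the integrated stress response, was the highest of them at 74.6 FPKM in the sorted cells and 97.5 FPKM in pancreas. Creb3, a membrane-bound factor of the secretory pathway, stood at 14.1 and 34.9 FPKM.

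Other immediate early genes were called in both directions. Of 40 such genes, 26 reached 5 FPKM in either sample, of which 4 were called higher in the sorted cells and 3 in pancreas. The 10.3% and 11.9% of all genes called in these directions are the background for this list and for those that follow, and the counts of this list lie near it. The median difference was -0.52, and 0.092 with equal totals. Ier5l, a relative of Ier2, stood at 25.0 FPKM in the sorted cells and 0.328 FPKM in pancreas. Plk3, a stress-responsive polo-like kinase, stood at 33.8 and 1.31 FPKM, and Gadd45g, a growth arrest gene used in neuronal differentiation, at 93.2 and 7.38 FPKM. Ier5 stood at 19.7 and 4.10 FPKM. Toward pancreas, the growth arrest gene Gadd45b stood at 12.6 FPKM against 0.807, the kinase gene Plk2 at 75.7 against 9.76 and Klf4, a zinc finger factor of epithelia, at 5.33 against 0.430. Members of one family, such as Gadd45b and Gadd45g or Plk2 and Plk3, thus stood on opposite sides, as Jund and Fosl2 did within AP-1. Among the 224 listed genes that are not members, the levels most like those of Jund were those of Gadd45g, at a distance of 0.41 in log2 over the 2 samples, then Map2k2 at 1.33 and Polr2a at 1.43.

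The kinases upstream of AP-1 differed by isoform. Of 32 genes of serum response factor, its partners, CREB cofactors and MAP kinases, 28 reached 5 FPKM, of which 3 were called higher in the sorted cells and 1 in pancreas. The median difference was 0.50, and 0.058 after the length and GC correction. Mapk10, the neuronal Jun kinase JNK3, stood at 13.3 FPKM in the sorted cells and 0.235 FPKM in pancreas. The p38 kinase genes split, with Mapk11 at 26.0 against 2.08 FPKM and Mapk12 at 12.5 against 2.38 FPKM higher in neural tube, and Mapk13 at 25.8 FPKM in pancreas against 0.509 in the sorted cells. The Mapk12 difference of 2.00 is at the threshold.

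Among 17 dual specificity phosphatases other than Dusp1 and Erk feedback inhibitors, 12 reached 5 FPKM, and 2 were called higher in the sorted cells and 0 in pancreas. Dusp4, a nuclear phosphatase induced by Erk, stood at 67.9 FPKM in the sorted cells and 1.84 in pancreas, and Dusp8, which acts on Jun kinases and p38, at 22.0 and 1.14 FPKM. The median difference of this list was -0.21, and ranged from -0.40 to 1.29. Both genes differed by more than Dusp1 did.

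Of 21 heat shock and dissociation stress genes, 2 were called higher in the sorted cells and 5 in pancreas, with a median of -0.49 that ranged from -0.76 to 0.14. Hspa1a and Hspa1b, inducible Hsp70 genes, stood at 6.26 and 6.48 FPKM in neural tube and 0.579 and 0.731 FPKM in pancreas, and their separate values are uncertain because the copies are nearly identical. The metallothionein genes Mt2 and Mt1 stood at 555 and 626 FPKM in pancreas against 9.16 and 26.8 in neural tube. The small heat shock genes Hspb1, at 23.0 against 2.19 FPKM, and Hspb8, at 9.62 against 0.546 FPKM, were also called toward pancreas. The inducible Hsp70 genes thus stood on the side of Jund, and the metallothioneins and small heat shock genes on that of Fosl2.

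Genes often described as AP-1 targets were mostly lower in the sorted cells, in 11 of 13 at 1 FPKM or more as deposited. As deposited, 7431 of all 14303 genes at 1 FPKM or more were lower in the sorted cells. With equal totals 10 of the 13 targets were lower. The share of all genes was not counted under that scaling, but their median difference moved from -0.072 as deposited to 0.50. Vim, at 477 FPKM in the sorted cells and 273 in pancreas, and Ccnd1, at 76.0 and 37.3, were the 2 targets that were higher. The list sum was 619 FPKM in the sorted cells and 581 in pancreas. Of the 16 genes of this list, 9 reached 5 FPKM, of which 0 were called higher in the sorted cells and 2 in pancreas. The median difference was -1.40 (-1.92 to -0.76 over the alternatives). The calcium-binding protein gene S100a6 stood at 107.6 FPKM in pancreas against 2.86 in the sorted cells, and Timp1, an inhibitor of matrix proteases, at 10.2 against 1.44 FPKM. Several genes of this list are also expressed by stromal cells or macrophages, and the mesenchyme and macrophage markers were lower in the sorted cells too, with median differences of -4.46 and -2.65. The part of those cells in the levels of the target genes was not tested. Of 11 regulators of Jun stability and activity in the table, 0 were called, with a median of -0.14 that ranged from -0.37 to 0.41. Cops5, also called Jab1, stood at 45.7 FPKM in the sorted cells and 111.6 in pancreas, and the deacetylase gene Hdac3 at 46.9 and 57.0 FPKM.

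**Figure D5:**
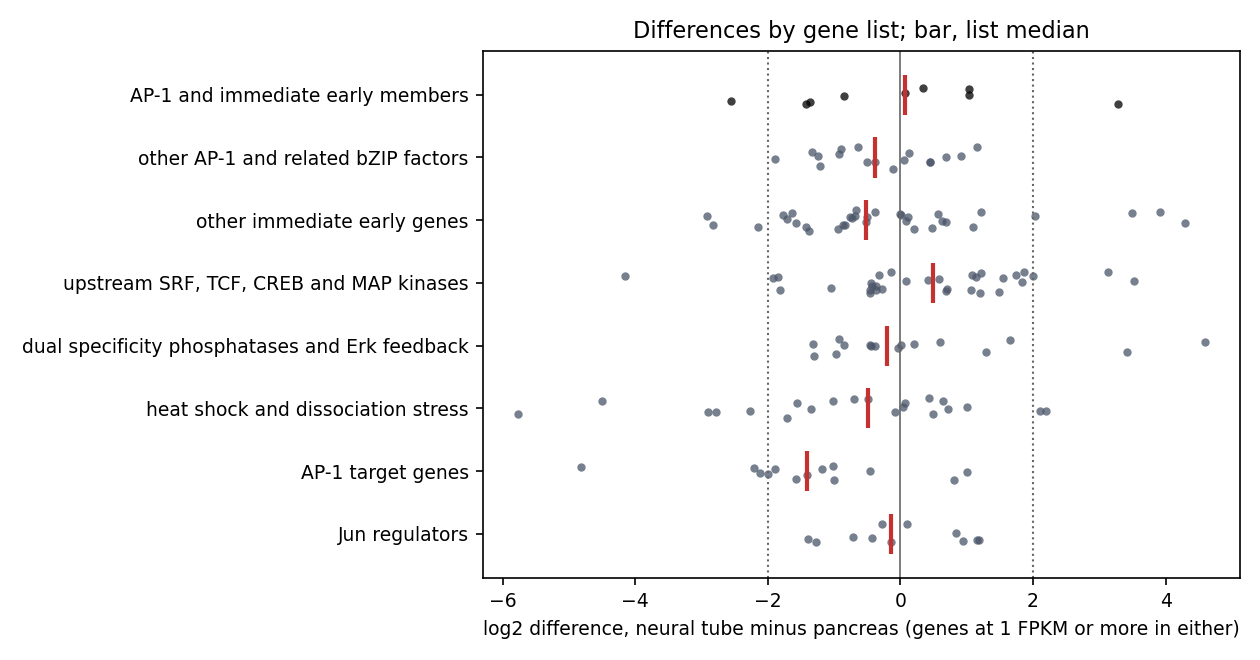
Difference in log2 (neural tube minus pancreas) of every gene at 1 FPKM or more in either sample in the 10 members and 7 related lists (points, spread vertically only for legibility), with the list median (bar) and dotted lines at 4 times. List medians run from -1.40 for AP-1 target genes to 0.50 for upstream kinases and factors, and the members' median is 0.074.

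Mesenchyme, endothelial and macrophage markers were higher in pancreas, as the values of Fos, Fosb, Fosl2, Egr1 and Atf3 were, whereas erythroid markers were called in both directions. All 8 mesenchyme markers were higher there, 6 by the rule, with a summed level of 1261 FPKM against 45.8 in the sorted cells. All 7 endothelial markers were higher, 5 by the rule, at 95.0 against 14.0 FPKM, and all 8 macrophage and immune markers, 5 by the rule, at 224 against 7.33 FPKM. No defining marker of these lists was at 0 in either sample, and single markers ranged in neural tube from 0.0300 FPKM (Ptprc) to 11.2 FPKM (Col3a1) and in pancreas from 1.66 FPKM to 469 FPKM for the same genes. Of 6 erythroid markers 4 were called toward pancreas and 2, Hbb-bh1 and Hba-x, toward neural tube. Their summed level was 15895.5 FPKM in pancreas and 1226 FPKM in the sorted cells, so transcripts of blood cells were present in both samples. In bulk samples such as these, fewer cells of a type and less RNA per cell cannot be told apart, and the part of these cells in the pancreas levels of the members was not tested.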

How the data were processed

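RNA was sequenced from 2 of the 18 samples of the series, and the other 16, of chromatin, are not analysed here. The authors deposited 1 table of FPKM, and both value columns were read as pooled values of a sample. Per the submitters' processing notes the tools were CASAVA, TopHat, TopHat2 2.0.4 and Cuffdiff 2.0.2 and the build mm9, with no role or order given. The annotation and any filters were not stated there. RNA came, per the labels' protocols, from a column kit for sorted cells and Trizol for pancreas, and an mRNA-seq and a TruSeq preparation are both named for pancreas.

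Differences used a pseudocount of 1 FPKM, calls at least 4 times and 5 FPKM, medians genes at 1 FPKM or more. Positions, transcript length and GC content came from GENCODE M1 on NCBIM37, the build of mm9 (21662 symbols, 93.3%). Fragment numbers are approximate: FPKM times length, divided by the most frequent low step of that product over genes with 1 transcript. Work was done in Python 3.11.15 with numpy 2.4.6 and pandas 2.3.3. The code that applies the rule of size was checked on simulated data, which says nothing of the rule's error rate. The members and lists were chosen with earlier results of these data known. The naming rule took, from each list related to the members, up to 4 called genes in each direction, or the 2 highest where none was called. Vim and Ccnd1 are named outside this rule. Marker lists are given mainly by their counts, with sums for all except the neural tube and pancreas identity lists. The core TGACG, TGACATCA and the length and GC correction were added after the data were seen. Alternatives were pseudocounts of 0.1 and 5, no minimum or 10 FPKM, 5 rescalings, thresholds of 2 and 8 times, and that correction.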

Additional observations from a re-analysis of the deposited data

How the results depend on the processing

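With 1 pooled value per sample, no result has a replicate check. No paired analysis was possible because the table holds 1 value per gene and sample. Members called toward neural tube numbered 1, but 3 at a threshold of 2 times and 0 after the length and GC correction. Members called toward pancreas numbered 1, but 2 at 2 times and 0 at 8 times, with a pseudocount of 5 or with a minimum of 10 FPKM. The median difference, 0.074, was 0.11 and 0.031 with pseudocounts of 0.1 and 5, -0.12 with no minimum and 1.03 with a minimum of 10 FPKM. It was 0.056 with median ratio scaling, -0.096 with upper quartile, 0.30 with housekeeping, 0.52 with equal totals and 0.32 with equal totals without the 50 highest genes. After the length and GC correction it was -0.94, and Jun was at -0.058, Junb at -0.94 and Ier2 at -0.00044. Junb was also at -0.096 with upper quartile scaling. The Jund share differed by 46.5 points, by 58.0 of Jun and Fos genes together and by 46.9 with FPKM times length. Of 120 differences of single members under alternatives, 109 kept direction and call, 4 lost the call, 3 gained it and 4 changed sign. Pseudocounts, minimum levels and thresholds cannot change the sign of a member's difference, so only the rescalings and the correction bear on direction. Depth limits Fosl2, Atf3 and Fosb in neural tube, with about 24, 19 and 31 fragments.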
